A study of Mus musculus with 12 samples.

Results

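The mitochondrial carrier family (Slc25) was examined in sorted spermatogenic cells of 2 mouse strains. Members were chosen by symbol, as every gene named Slc25a with a number and named alone by at least 1 probeset of the array. The rule gave 44 genes with 93 probesets, of 18193 genes and 45037 probesets measured. The family was put forward because several members stood higher in pachytene than in prepachytene cells, so the values of that comparison selected it and are given as a description with no test. The 6 groups were prepachytene cells (leptotene, zygotene and early pachytene spermatocytes), pachytene cells (mid-late pachytene and diplotene spermatocytes) and spermatids of PWD/Ph (PWD), an inbred strain of *M. m. musculus* origin, and of C57BL/6J (B6), a classical laboratory strain whose genome is mostly *M. m. domesticus*. Each group had 2 arrays, 12 in all, from flow-sorted testicular cells of males aged 8 to 10 weeks, with no other treatment or modified allele. The study's methods speak of biological replicates for RNA expression in general, but the sources do not say which males gave the 2 arrays of a group, so that the p-values measure only the spread between these samples, which may be technical. The probes follow a reference close to B6, so where the PWD sequence mismatches a probe its value there is too low. A lower PWD value at 1 probeset cannot be told apart from such a mismatch, and a higher one may be understated by it.

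Most carriers of this family are proteins of the mitochondrial inner membrane that share a fold of repeated pairs of membrane helices. They exchange a small molecule of the matrix for one of the cytosol. Among them are ADP/ATP carriers, which export ATP made by oxidative phosphorylation, carriers of phosphate, di- and tricarboxylates and amino acids, and carriers of nucleotides, coenzymes and acylcarnitine. *Slc25a31* encodes Ant4, an ADP/ATP carrier of germ cells that male meiosis in the mouse requires, beside the somatic carriers Ant1 (*Slc25a4*) and Ant2 (the X-linked *Slc25a5*). Genes on the X chromosome are silenced in pachytene spermatocytes, when the sex chromosomes form the sex body.

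The promoters of 2 members are shown because these were the only members whose window held a match to the NRF1 motif, NRF1 being a transcription factor of nuclear genes for mitochondrial proteins, and because they were the ADP/ATP carrier of germ cells and the member with the widest difference between pachytene and prepachytene cells. Each sequence has the 250 bases before the gene's start in RefSeq (GRCm38.p6), on the plus strand in both, at chr3:40708621-40708870 for *Slc25a31* and at chr3:109080249-109080498 for *Slc25a54*, an ATP-Mg/phosphate carrier relative. Capitals mark matches to GCATGCGC (NRF1) and AACNGNC (core of the motif of MYB factors), on either strand.
Slc25a31: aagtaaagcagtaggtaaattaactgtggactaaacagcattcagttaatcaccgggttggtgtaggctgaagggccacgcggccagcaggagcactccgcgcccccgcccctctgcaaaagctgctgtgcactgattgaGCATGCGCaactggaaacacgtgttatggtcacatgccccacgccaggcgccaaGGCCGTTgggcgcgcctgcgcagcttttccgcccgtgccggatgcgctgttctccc
Slc25a54: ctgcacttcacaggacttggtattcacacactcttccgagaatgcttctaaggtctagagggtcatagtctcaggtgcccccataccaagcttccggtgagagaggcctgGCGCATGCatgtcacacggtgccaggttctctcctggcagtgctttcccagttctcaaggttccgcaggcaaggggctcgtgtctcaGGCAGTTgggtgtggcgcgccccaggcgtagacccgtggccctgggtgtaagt
In both, the NRF1 match lay farther from the start, its first base 110 bases before it in *Slc25a31* and 140 in *Slc25a54*, and the MYB match nearer, at 56 and 53 bases, and the matches did not overlap. Over windows from 250 bases before to 50 after the start, 2 of 43 windows of the 34 members with one held the NRF1 letters, against 2.71% of all 32851 windows. The MYB letters were in 10 of the 43 windows and in 32.8% of all windows, TGACGTCA (cAMP response element) in 2 (of *Slc25a25* and *Slc25a36*) and in 1.79%, and AAGGTCA (half-site of estrogen-related receptors) in 1 (of *Slc25a34*) and in 4.72%. These matches are descriptions of letters and not binding sites.

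The labelled populations were checked against marker genes, with a level over 4.56 (log2) called above background. That limit is the 95th percentile among 45 probesets for genes of other organs. All 10 prepachytene markers were above background in prepachytene cells and 9 of the 10 pachytene markers were higher in pachytene cells by the rule used for members. All 10 spermatid markers were also above background in prepachytene cells, where the mean of the list per array was 10.6 in B6 and 11.5 to 11.9 in PWD, against 9.3 to 10.0 in pachytene cells and 12.6 to 13.5 in spermatids. Of 9 Sertoli cell markers, 5 in B6 and 7 in PWD were above background in prepachytene cells, with list means of 6.6 to 7.3 and 7.8 to 8.2 against 4.3 to 4.8 in pachytene cells. Spermatogonial markers were above background for 5 of 7 in prepachytene cells and for 0 in pachytene cells, and Leydig cell markers for 0 of 4 in every group but PWD spermatids, with 1. In sorted bulk samples, fewer cells of a type and less RNA per cell cannot be told apart. Arrays of the same group correlated at 0.987 to 0.996.

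Of the 44 members, 37 had a mean above background in at least 1 group, and 22 had it in all 6. Of the 37, 16 had their highest level in prepachytene cells, 10 in pachytene cells and 11 in spermatids, and in 15, 7 and 9 of them both strains had it in the same population. The 7 members near the floor of the array in every group were *Slc25a13*, *Slc25a18*, *Slc25a22*, *Slc25a23*, *Slc25a34*, *Slc25a37* and *Slc25a48*. The plot of all members by array shows blocks of carriers that were high in 1 population and low in the others within nearly every functional class, and a similar order of populations in both strains.

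**Figure D1:**
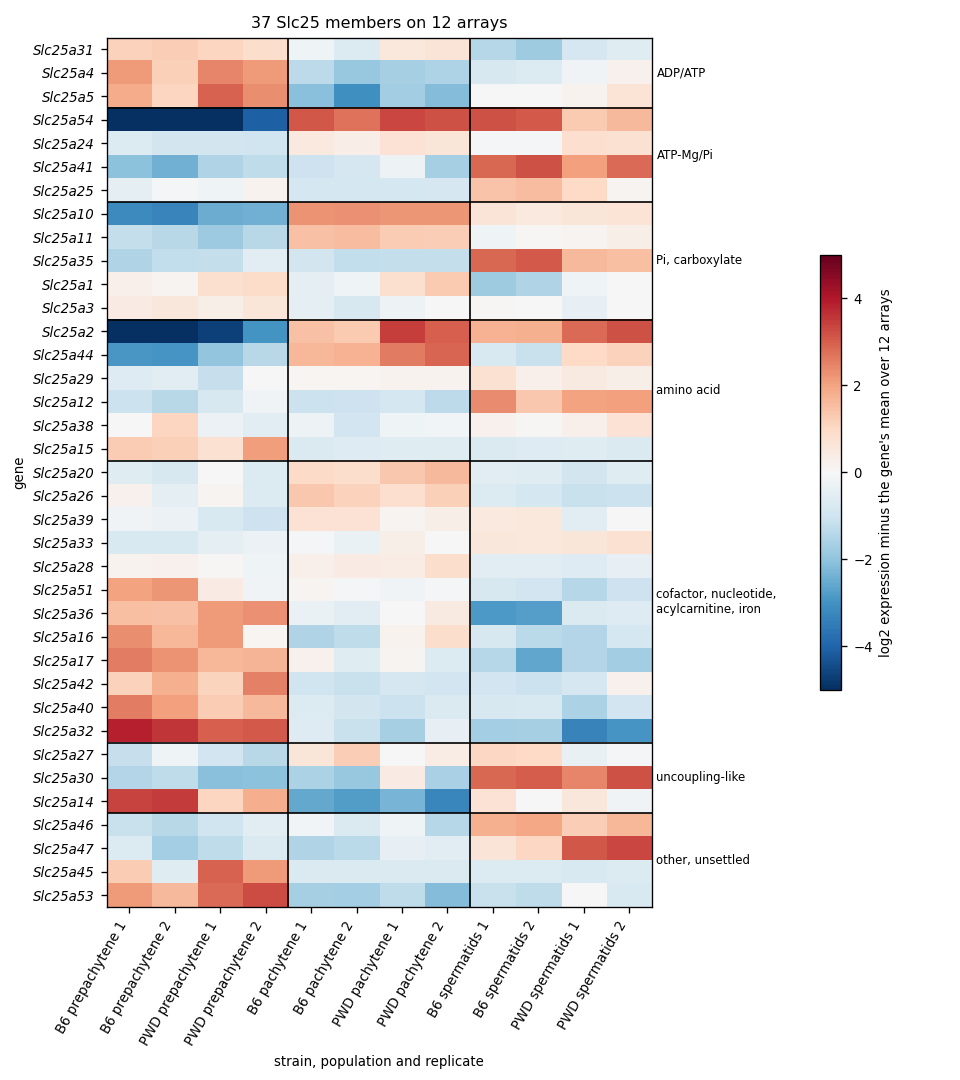
Log2 expression of the 37 Slc25 genes with a group mean above background on the 12 arrays, each gene minus its own mean over the arrays (red, higher; blue, lower; colours end at a difference of 5). Rows are ordered by functional class and, within it, by the difference between pachytene and prepachytene cells. *Slc25a54* and *Slc25a2* go from blue to red between prepachytene and pachytene cells, *Slc25a4*, *Slc25a5* and *Slc25a14* from red to blue, and *Slc25a30*, *Slc25a41* and *Slc25a35* are deep red in spermatids only.

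A member was counted as higher or lower in pachytene than in prepachytene cells where the mean difference over both strains was at least 1 on the log2 scale and the 4 arrays of each side did not overlap. There were 10 members higher and 12 lower, of which 5 and 9 differed by at least 2. Over all genes, 16.6% were higher and 19.9% lower by this rule, and since the comparison selected the family nothing is read from the members' counts. The median difference was 0.11 over members and 0.08 over all genes. Just inside the limit were *Slc25a39* at 1.02 and *Slc25a31* at -1.01, and the nearest value outside it was that of *Slc25a41*, at 0.84. *Slc25a16* (-1.99) and *Slc25a51* (-1.16) were past the limit in size, but their arrays overlapped. Of the marker lists, 6 of 10 spermatid, 6 of 9 Sertoli and 5 of 7 spermatogonial markers were lower in pachytene cells by the same rule, and the part of other cells in the members' lower values was not tested.

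Between pachytene cells and spermatids, tested with limma over both strains, 12 members rose and 13 fell, against 18.2% of all genes that were higher in spermatids and 23.8% that were lower. The median over members was -0.03 on the log2 scale and that over all genes 0.01. This comparison shares its pachytene arrays with the one before, so the values of the 2 are given side by side for each member. All 10 spermatid markers and 4 of 9 Sertoli markers were higher in spermatids, and 0 of the spermatid markers were lower. Of the 25 calls, 24 held whichever array was left out. The exception was *Slc25a53* (log2 difference 0.92, limma adjusted p = 0.0307), which was lost without any array of B6 pachytene cells or B6 spermatids, PWD pachytene replicate 2 or PWD spermatids replicate 1 (adjusted p up to 0.0964).

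**Figure D2:**
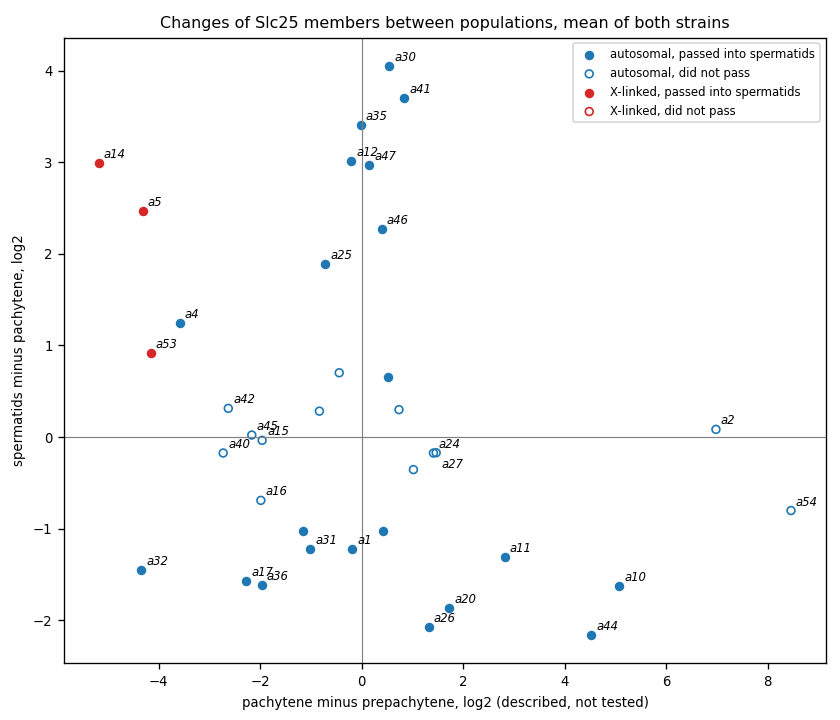
Difference between pachytene and prepachytene cells (horizontal axis, described and not tested) against that between spermatids and pachytene cells (vertical axis), both on the log2 scale and as the mean of the strains, for the 37 Slc25 genes above background. Filled points passed the test between spermatids and pachytene cells, and red points are the 3 X-linked members, which lie at the upper left. The axes share the pachytene arrays.

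The 3 ADP/ATP carriers were all lower in pachytene than in prepachytene cells, and then moved in opposite directions. The level of *Slc25a31* (Ant4, chromosome 3) was 14.6 and 14.6 in B6 against 14.5 and 14.3 in PWD prepachytene cells, 13.2 and 12.7 against 13.9 and 14.0 in pachytene cells, and 12.0 and 11.6 against 12.6 and 12.8 in spermatids. It was far above background on every array, lower in pachytene than in prepachytene cells with a difference of -1.01 and again fell by 1.22 in spermatids (SE 0.13, limma adjusted p = 0.00013). *Slc25a4* (Ant1) measured 8.7 and 7.8 in B6 against 9.0 and 8.7 in PWD prepachytene cells, 5.3 and 4.6 against 4.9 and 5.0 in pachytene cells, and 5.8 and 5.9 against 6.4 and 6.8 in spermatids. Pachytene values of *Slc25a4* were close to the background level, -3.59 from prepachytene cells, and the gene rose in spermatids by 1.25 (SE 0.24, limma adjusted p = 0.00386), without reaching its prepachytene level on any array. The X-linked *Slc25a5* (Ant2) measured 8.4 and 7.6 in B6 against 9.5 and 8.9 in PWD prepachytene cells, 4.5 and 3.5 against 4.8 and 4.4 in pachytene cells, and 6.5 and 6.5 against 6.7 and 7.2 in spermatids. Its difference into pachytene cells was -4.31, with 3 of 4 pachytene arrays below background, and it rose in spermatids by 2.47 (SE 0.29, limma adjusted p = 0.000248), from values partly at the floor of the array, so that the size of the rise is open to that floor. These values are of 1436874_x_at, the brightest of the 8 probesets of *Slc25a5*. Over the 6 above background, the difference into pachytene cells ran from -4.95 to -0.57 and that into spermatids from 0.57 to 2.64.

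By their brightest probesets, all 3 X-linked members had a low in pachytene cells. *Slc25a14*, an uncoupling-protein-like carrier of the brain, was at 9.6 and 9.7 in B6 against 7.3 and 8.0 in PWD prepachytene cells, 3.7 and 3.4 against 3.9 and 3.0 in pachytene cells, and 6.9 and 6.2 against 6.8 and 6.0 in spermatids. It was below background on all 4 pachytene arrays (-5.17 from prepachytene cells) and rose by 2.99 in spermatids (SE 0.30, limma adjusted p = 0.000102). *Slc25a53*, a carrier of unsettled substrate, was at 8.0 and 7.5 against 8.7 and 9.1 in prepachytene cells, 4.2 and 4.2 against 4.6 and 3.7 in pachytene cells, and 4.7 and 4.6 against 5.9 and 5.1 in spermatids, B6 against PWD. The autosomal *Slc25a4* had the same course, and the cause of these lows was not tested.

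Carriers of ATP-Mg and phosphate move adenine nucleotides without an exchange of ADP for ATP and so set the size of the nucleotide pool of the matrix. *Slc25a54* was at 3.5 and 2.8 in B6 against 3.0 and 4.8 in PWD prepachytene cells, 12.0 and 11.7 against 12.3 and 12.1 in pachytene cells, and 12.1 and 12.0 against 10.2 and 10.5 in spermatids. The pachytene level was higher by 8.46, the widest difference of any member, and 3 of the 4 prepachytene arrays were below background, so that its fold is open to the floor of the array. Between pachytene cells and spermatids it did not pass over both strains (-0.80, 95% interval -1.65 to 0.04, limma adjusted p = 0.166). *Slc25a41* was highest in spermatids, at 8.9 and 9.2 in B6 against 8.0 and 8.8 in PWD, from 4.9 and 5.2 against 5.7 and 4.3 in pachytene and 4.0 and 3.6 against 4.5 and 4.7 in prepachytene cells. It rose by 3.70 (SE 0.32, limma adjusted p = 4.28e-05), and *Slc25a25*, a carrier of the same class, rose by 1.89 (SE 0.20, limma adjusted p = 0.000131). *Slc25a24* stood higher in pachytene cells by 1.41 and did not pass into spermatids (-0.17, 95% interval -0.42 to 0.07).

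Of the 6 carriers of phosphate and carboxylates, the 2 dicarboxylate exchangers were highest in pachytene cells. *Slc25a10*, which exchanges malate or succinate for phosphate, was at 4.8 and 4.7 in B6 against 5.5 and 5.6 in PWD prepachytene cells, 10.3 and 10.3 against 10.2 and 10.2 in pachytene cells, and 8.6 and 8.5 against 8.6 and 8.7 in spermatids. The 3 populations did not overlap on any array: the gene stood higher by 5.08 in pachytene cells and fell by 1.62 in spermatids (SE 0.09, limma adjusted p = 5.28e-06). *Slc25a11*, the oxoglutarate/malate carrier of the malate-aspartate shuttle, followed with 7.3 and 7.1 against 6.7 and 7.1, 9.9 and 10.0 against 9.7 and 9.7, and 8.3 and 8.5 against 8.6 and 8.8 in the 3 populations in that order (B6 against PWD). It stood higher by 2.82 in pachytene cells and then fell by 1.31 (SE 0.12, limma adjusted p = 7.71e-05). *Slc25a35* was below background in prepachytene and pachytene cells (all 8 arrays between 3.4 and 4.4) and was at 7.8 and 8.0 in B6 against 6.5 and 6.4 in PWD spermatids. It rose by 3.41 (SE 0.17, limma adjusted p = 3.75e-06), at least in part from the floor of the array. The citrate carrier *Slc25a1* fell by 1.22 in spermatids (SE 0.14, limma adjusted p = 0.000204). By its brightest probeset, *Slc25a3*, the phosphate carrier that feeds ATP synthase, was high on all arrays, between 12.6 and 14.0. It did not pass over both strains (0.28, 95% interval -0.02 to 0.59), but rose within B6 (0.63, limma adjusted p = 0.0391) and had -0.06 within PWD. Its other probeset above background had -0.99 into spermatids. Between PWD and B6 that probeset differed by -2.62 in prepachytene cells, -1.91 in pachytene cells and -0.19 in spermatids.

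**Figure D3:**
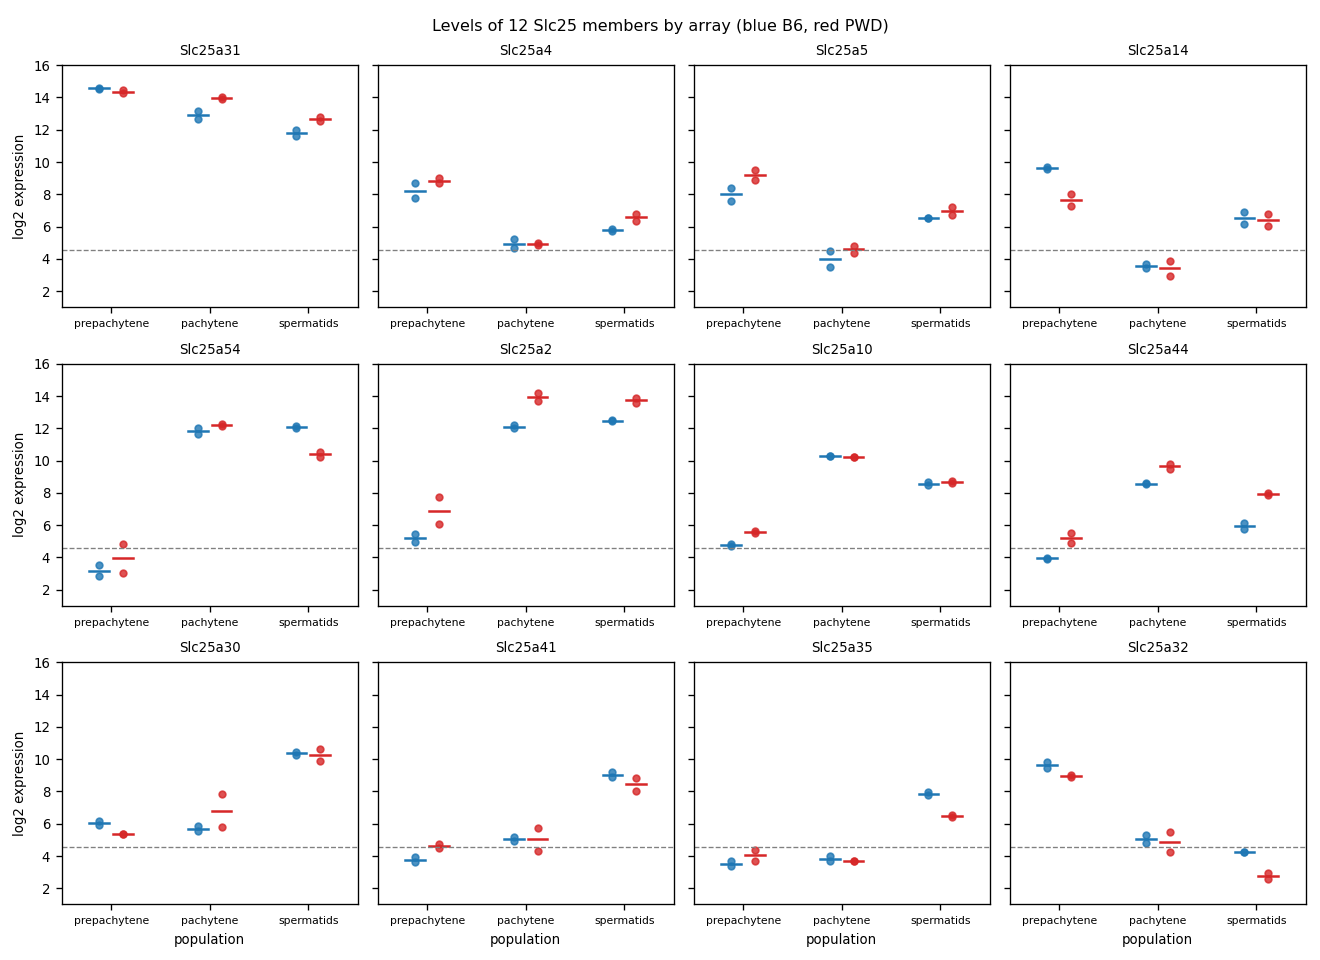
Log2 expression of 12 Slc25 genes by population, with 1 point per array (blue, B6; red, PWD), a bar at the mean of the 2 arrays of a group and a dashed line at the background level of 4.56. The top row has the ADP/ATP carriers and the X-linked *Slc25a14*, the middle row members high in pachytene cells and the bottom row members high in spermatids, with *Slc25a32* as one high in prepachytene cells. Levels are those of 1 probeset each and are not comparable between genes.

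Among amino acid carriers, *Slc25a2* and *Slc25a44* were the members with a high pachytene level. The ornithine carrier *Slc25a2* (chromosome 18) was at 5.0 and 5.4 in B6 against 6.0 and 7.7 in PWD prepachytene cells, 12.2 and 12.0 against 14.2 and 13.7 in pachytene cells, and 12.5 and 12.5 against 13.6 and 13.9 in spermatids. It stood higher by 6.98 in pachytene cells and stayed near that level in spermatids (0.08, 95% interval -0.69 to 0.86, which leaves changes of that size open). The other ornithine carrier, *Slc25a15*, was lower in pachytene cells with a difference of -1.96, but from levels of 4.5 and 4.4 in B6 against 4.0 and 5.3 in PWD prepachytene cells, of which only 1 array was above background. *Slc25a44*, a carrier of branched-chain amino acids, was at 4.0 and 3.9 in B6 against 4.9 and 5.5 in PWD prepachytene cells, 8.5 and 8.6 against 9.5 and 9.8 in pachytene cells, and 6.1 and 5.8 against 7.9 and 8.0 in spermatids. The difference of 4.52 into pachytene cells was followed by one of -2.16 into spermatids (SE 0.16, limma adjusted p = 2.35e-05). Both B6 prepachytene arrays of *Slc25a44* were below background, so that the size of its difference into pachytene cells is open to the floor of the array. *Slc25a12*, the aspartate/glutamate carrier of the malate-aspartate shuttle, was below background on the 8 spermatocyte arrays, from 3.0 to 4.2, and at 6.7 and 5.7 in B6 against 6.4 and 6.4 in PWD spermatids, a rise by 3.02 (SE 0.25, limma adjusted p = 3.53e-05). The size of that rise is open to the floor of the array. The second-brightest probeset of *Slc25a12*, with no group mean above background, did not pass (0.02, limma adjusted p = 0.745). The second aspartate/glutamate carrier, *Slc25a13*, stayed below background on every array, and its difference of -0.18 into spermatids lies within the floor. The glycine carrier *Slc25a38* (0.70, 95% interval 0.08 to 1.32) and *Slc25a29*, a carrier of basic amino acids (0.30, -0.28 to 0.88), did not pass.

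Carriers of cofactors, nucleotides, acylcarnitine and iron were the largest class, with 12 of 13 above background, and 7 of the 13 fell in spermatids while 1 rose, against 23.8% of all genes lower and 18.2% higher. The 7 include *Slc25a36*, *Slc25a26* and *Slc25a17*, whose further probesets did not give the same call. The widest difference in this class was that of *Slc25a32*, the folate carrier, at 9.8 and 9.5 in B6 against 8.9 and 9.0 in PWD prepachytene cells, 5.3 and 4.8 against 4.2 and 5.5 in pachytene cells, and 4.2 and 4.3 against 2.6 and 3.0 in spermatids. It was lower in pachytene cells with a difference of -4.34 and fell by 1.45 in spermatids (SE 0.27, limma adjusted p = 0.00359), with all 4 spermatid arrays below background. *Slc25a36*, a pyrimidine nucleotide carrier, was at 12.4 and 12.4 in B6 against 13.1 and 13.2 in PWD prepachytene cells, 10.6 and 10.4 against 10.9 and 11.4 in pachytene cells, and 8.1 and 8.2 against 10.2 and 10.3 in spermatids. It differed by -1.97 between prepachytene and pachytene cells and fell by 1.62 in spermatids (SE 0.12, limma adjusted p = 2.22e-05). That call rests on the brightest of 3 probesets above background, since the second-brightest did not pass (-0.25, limma adjusted p = 0.519), nor did the third (-0.29, adjusted p = 0.427). *Slc25a33*, the other pyrimidine nucleotide carrier, was the member of this class that rose in spermatids, by 0.65 (SE 0.09, limma adjusted p = 0.000646), from 12.5 and 12.2 in B6 against 12.8 and 12.6 in PWD pachytene cells to 13.1 and 13.1 against 13.2 and 13.3.

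The carrier of acylcarnitine for fatty acid oxidation, *Slc25a20*, was highest in pachytene cells, at 10.3 and 10.1 in B6 against 10.9 and 10.2 in PWD prepachytene cells, 11.9 and 11.8 against 12.3 and 12.5 in pachytene cells, and 10.3 and 10.3 against 10.0 and 10.3 in spermatids. Prepachytene cells and spermatids had nearly the same range, and the gene stood 1.72 higher in pachytene cells and fell by 1.87 in spermatids (SE 0.16, limma adjusted p = 3.79e-05). *Slc25a17*, a peroxisomal carrier of coenzymes, was lower in pachytene cells with a difference of -2.28 and fell by 1.58 (SE 0.32, limma adjusted p = 0.0052). All 4 of its spermatid arrays were below background, between 3.0 and 4.2. The other probeset of *Slc25a17*, with no group mean above background, did not pass (-0.11, limma adjusted p = 0.446). *Slc25a51*, which carries NAD+ into the matrix, fell by 1.02 (SE 0.16, limma adjusted p = 0.0012), and so did *Slc25a28*, the iron carrier mitoferrin 2 (-1.02, SE 0.13, limma adjusted p = 0.000381). Over the 3 probesets of *Slc25a51* above background, the difference into spermatids ran from -3.57 to -1.02. *Slc25a40* and *Slc25a42*, the latter a coenzyme A carrier, were lower in pachytene cells with differences of -2.73 and -2.63 and did not pass into spermatids (-0.17, 95% interval -0.62 to 0.27, and 0.31, -0.47 to 1.10). *Slc25a39*, a glutathione carrier, was between 12.5 and 14.3 on all arrays, higher in pachytene cells by 1.02, and had -0.35 into spermatids (95% interval -0.64 to -0.07, limma adjusted p = 0.0665).

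By the mean of both strains and the brightest probesets, the largest measured rise into spermatids was that of *Slc25a30*, an uncoupling-protein-like carrier of the kidney. It was at 5.9 and 6.2 in B6 against 5.3 and 5.4 in PWD prepachytene cells, 5.9 and 5.5 against 7.8 and 5.8 in pachytene cells, and 10.3 and 10.4 against 9.9 and 10.6 in spermatids. The rise was 4.05 (SE 0.41, limma adjusted p = 0.000103), a 16.6-fold difference, and PWD pachytene replicate 1 lay 2.06 above replicate 2. Its 2 other probesets above background rose by 1.94 and 0.77 (limma adjusted p = 4.16e-05 and 0.00853). Within PWD alone the rise of *Slc25a47* (3.68) was larger than that of *Slc25a30* (3.44). *Slc25a27*, of the same class, was higher in pachytene cells by 1.47 and did not pass into spermatids (-0.17, 95% interval -0.75 to 0.41). Of the carriers with another or unsettled role, *Slc25a46*, an outer membrane protein that acts in mitochondrial fission and fusion, was at 9.9 and 9.6 in B6 against 10.0 and 10.5 in PWD prepachytene cells, 10.9 and 10.3 against 10.8 and 9.6 in pachytene cells, and 12.8 and 13.0 against 12.3 and 12.7 in spermatids. It rose by 2.27 (SE 0.28, limma adjusted p = 0.000323) and no spermatid array overlapped a pachytene array. *Slc25a47*, known from liver, was below background on all 8 spermatocyte arrays and at 5.5 and 5.9 in B6 against 8.0 and 8.2 in PWD spermatids, a rise by 2.97 (SE 0.24, limma adjusted p = 3.55e-05). *Slc25a45* was lower in pachytene cells with a difference of -2.16, and was above background on 2 PWD prepachytene arrays alone (6.2 and 5.4, against 4.5 and 2.6 in B6).

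The strains were then compared within each population, as the study did for its candidate genes. In prepachytene cells, 5 members were higher in PWD and 3 lower (limma adjusted p under 0.05), against 16.6% of all genes higher and 5.88% lower. In pachytene cells, 6 members were higher, with 12.1% of all genes, and 0 lower, with 5.05% of all genes; 1 was lower at an unadjusted p under 0.05. In spermatids, 6 members were higher and 3 lower, with 9.56% and 7.54% of all genes. The median difference over members was 0.11, 0.04 and -0.01 in the 3 populations, and over all genes 0.02, 0.09 and -0.03. In prepachytene cells, 6 of 10 spermatid markers and 2 of 9 Sertoli markers were also higher in PWD, and in spermatids 4 of 10 spermatid markers were lower and 3 of 10 prepachytene markers higher in PWD. Of 10 pachytene markers, 2 were higher and 3 lower in PWD prepachytene cells, and 2 higher and 1 lower in PWD pachytene cells. In PWD pachytene cells, 3 of 10 prepachytene markers were higher and 0 lower. The part of such differences between the sorted populations in the members' values was not tested. Centring the arrays on probesets above background shifted the strain differences by -0.28 in prepachytene cells, -0.25 in pachytene cells and -0.09 in spermatids, and the members split into 5 higher and 10 lower, 3 and 1, and 6 and 5. With only the 4 arrays of a comparison fitted, the differences were the same and 11 of the strain calls were lost. These were *Slc25a2*, *Slc25a10*, *Slc25a39*, *Slc25a44* and *Slc25a45* in prepachytene cells (limma adjusted p from 0.0656 to 0.199), *Slc25a1*, *Slc25a31*, *Slc25a36* and *Slc25a44* in pachytene cells (0.0716, 0.0743, 0.130 and 0.0681), and *Slc25a31* and *Slc25a39* in spermatids (0.0930 and 0.139).

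By its brightest probeset, *Slc25a44* was higher in PWD in all 3 populations, by 1.25 in prepachytene cells (95% interval 0.71 to 1.79, limma adjusted p = 0.00728), 1.07 in pachytene cells (0.54 to 1.61, adjusted p = 0.0211) and 2.01 in spermatids (1.47 to 2.55, adjusted p = 0.000876). The 2 arrays of PWD lay above both of B6 in each population. In prepachytene cells both B6 arrays were below background, so that the size of that difference is open to the floor of the array. The pachytene call was lost without either B6 pachytene array or PWD pachytene replicate 2 (adjusted p up to 0.104) and with centred arrays (0.0522), and the others held without any 1 array. The other probeset of *Slc25a44* above background passed in no population, with differences of 0.19, 0.76 and 1.33 (limma adjusted p = 0.896, 0.281 and 0.113). By its brightest probeset, *Slc25a36* was higher by 0.73 in prepachytene cells (0.34 to 1.13, limma adjusted p = 0.0205), 0.65 in pachytene cells (0.25 to 1.04, adjusted p = 0.0459) and 2.12 in spermatids (1.73 to 2.52, adjusted p = 0.000122). Its spermatid call held without any 1 array, the pachytene call was lost without any array but PWD pachytene replicate 1 (adjusted p up to 0.240), and the prepachytene call without either B6 prepachytene array or PWD prepachytene replicate 2 (up to 0.0952). Its second-brightest probeset passed in no population either, with differences of 0.66, -0.30 and 1.07 (limma adjusted p = 0.187, 0.531 and 0.0543). The third probeset above background differed by -0.73, -1.14 and 0.20, so the direction of *Slc25a36* between strains depended on the probeset in prepachytene and pachytene cells.

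*Slc25a1* was higher in PWD pachytene cells by 1.39 (0.94 to 1.85, limma adjusted p = 0.00301) and in PWD spermatids by 1.51 (1.06 to 1.97, adjusted p = 0.00166), from 9.3 and 9.6 in B6 to 10.6 and 11.1 in PWD pachytene cells and from 8.0 and 8.3 to 9.6 and 9.8 in spermatids. Both calls held without any 1 array. The germ cell carrier *Slc25a31* was higher in PWD pachytene cells by 1.05 (0.63 to 1.47, limma adjusted p = 0.00798), a call that held without any 1 array, and in PWD spermatids by 0.88 (0.46 to 1.30, adjusted p = 0.0164), lost without B6 or PWD spermatids replicate 2 (adjusted p up to 0.105). In prepachytene cells it did not pass (-0.22, -0.64 to 0.20), and with centred arrays it was lower in PWD there (-0.49, limma adjusted p = 0.0263). Neither *Slc25a4* nor *Slc25a5* passed in any population by its brightest probeset, with differences of 0.60, -0.01 and 0.77 for *Slc25a4* and 1.19, 0.62 and 0.47 for *Slc25a5*. By their second-brightest probesets, *Slc25a4* was higher in PWD in prepachytene cells (1.37, limma adjusted p = 0.0286) and spermatids (2.32, adjusted p = 0.00335), and *Slc25a5* in all 3 populations (1.21, 0.96 and 0.81, adjusted p = 0.00606, 0.0255 and 0.0485).

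**Figure D4:**
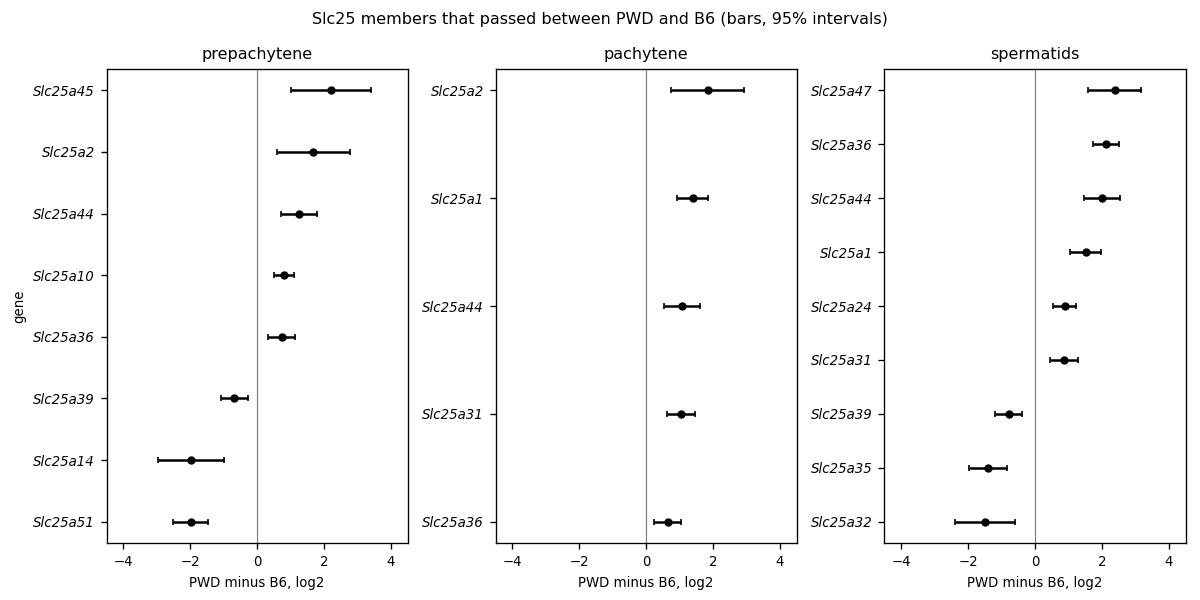
Difference between PWD and B6 on the log2 scale (points) with 95% intervals from limma (bars) in prepachytene cells, pachytene cells and spermatids, for the Slc25 genes above background that passed in that population by their brightest probeset. *Slc25a44* and *Slc25a36* lie right of 0 in all 3 panels, and *Slc25a39* lies left of 0 in prepachytene cells and spermatids. *Slc25a13*, which passed in pachytene cells below background, is left out.

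Other strain differences were called in 1 or 2 populations. *Slc25a51* was 10.3 and 10.5 in B6 against 8.7 and 8.1 in PWD prepachytene cells, lower in PWD with a difference of -1.99 (-2.50 to -1.47, limma adjusted p = 0.000654), and differed by -0.17 and -0.35 in pachytene cells and spermatids, with no call. The X-linked *Slc25a14* was also lower in PWD prepachytene cells with a difference of -1.98 (SE 0.42, limma adjusted p = 0.014), lost without either B6 prepachytene array or PWD prepachytene replicate 1 (adjusted p up to 0.0731). By its brightest probeset, *Slc25a10* was higher there by 0.80 (0.51 to 1.09, limma adjusted p = 0.00322), while its other probeset above background differed by -0.04 (adjusted p = 0.98). *Slc25a45* was higher there by 2.22 (1.02 to 3.42, limma adjusted p = 0.0206), a call lost without PWD prepachytene replicate 1 (1.82, adjusted p = 0.0926), and the difference was 1.28 without B6 prepachytene replicate 2. *Slc25a2* was higher in PWD prepachytene cells by 1.68 and in PWD pachytene cells by 1.85 (limma adjusted p = 0.0427 and 0.0403). The first was lost without any array but PWD prepachytene replicate 1 and was 0.85 without PWD prepachytene replicate 2 (adjusted p = 0.0830), and the second was lost without any array outside PWD prepachytene cells (adjusted p up to 0.178).

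In spermatids, *Slc25a47* was higher in PWD by 2.38 (1.58 to 3.18, limma adjusted p = 0.00296) and *Slc25a24* by 0.88 (0.54 to 1.23, adjusted p = 0.0061), while *Slc25a35* was lower with a difference of -1.40 (-1.96 to -0.85, adjusted p = 0.0068). These 3 calls held without any 1 array. The second-brightest probeset of *Slc25a24*, with no group mean above background, differed by -0.09 (limma adjusted p = 0.221). *Slc25a32* was lower in PWD spermatids with a difference of -1.49 (-2.38 to -0.60, limma adjusted p = 0.0435), with both strains below background there, and the second-brightest probeset differed by 0.10 (adjusted p = 0.919). The call was lost without any array but the 2 of PWD pachytene cells (adjusted p up to 0.187). *Slc25a54* was 12.1 and 12.0 in B6 against 10.2 and 10.5 in PWD spermatids, a difference of -1.66 (-2.86 to -0.47) that did not pass (limma adjusted p = 0.0871). *Slc25a13* was higher in PWD pachytene cells by 0.41 (limma adjusted p = 0.000216), at levels of 1.9 and 1.9 in B6 against 2.4 and 2.2 in PWD, all below background.

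Whether the change between populations differed between the strains was tested directly. The change from prepachytene to pachytene cells was more positive in PWD for 3 members and more negative for 1, with 6.39% and 7.24% of all genes, and that from pachytene cells to spermatids for 1 and 1, with 1.89% and 2.77%. For *Slc25a51*, B6 had -2.07 and PWD -0.25 into pachytene cells, and the strains differed by 1.82 (1.09 to 2.55, limma adjusted p = 0.00934). The same was seen for *Slc25a31*, with -1.64 in B6, -0.38 in PWD and a difference of 1.26 (0.67 to 1.86, limma adjusted p = 0.0182), lost without B6 prepachytene or PWD pachytene replicate 2 (adjusted p up to 0.0588). In the 2 genes B6 cells had the more negative difference. *Slc25a10* had 5.51 in B6 and 4.65 in PWD, differing by -0.86 (-1.26 to -0.45, limma adjusted p = 0.0193), a call lost without either B6 pachytene array or B6 prepachytene replicate 2 (adjusted p up to 0.0782), with centred arrays (0.0574), with only probesets above background tested (0.0643), with only the compared arrays fitted (0.0774) and by the second-brightest probeset (-0.37, adjusted p = 0.505). Into spermatids, *Slc25a36* had -2.35 in B6 and -0.88 in PWD, differing by 1.48 (0.91 to 2.04, limma adjusted p = 0.016), lost without B6 pachytene replicate 1 (adjusted p = 0.0560) and by the second-brightest probeset (1.37, adjusted p = 0.0998). *Slc25a54* did not fall in B6 (0.21, -0.99 to 1.40) and fell in PWD (-1.81, limma adjusted p = 0.0358), but the difference of the 2 changes did not pass (-2.02, -3.71 to -0.33, limma adjusted p = 0.129).

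Of the members, 23 had several probesets, and these differed both in strain comparisons and in the changes between populations. For *Slc25a39*, 4 of 5 probesets were above background. Its brightest, 1439410_x_at, differed between PWD and B6 in prepachytene cells, pachytene cells and spermatids by -0.68, -0.51 and -0.79, 1456176_x_at by -2.26, -1.41 and -1.79, and 1453111_a_at by 0.05, -0.54 and -0.63. The widest differences were those of 1447783_x_at, which was 9.9 and 10.1 in B6 against 4.7 and 5.6 in PWD prepachytene cells, 10.9 and 11.1 against 6.5 and 7.4 in pachytene cells, and 11.4 and 11.4 against 6.9 and 7.2 in spermatids, lower in PWD with differences of -4.86, -4.04 and -4.33 (limma adjusted p = 8.26e-05, 0.000319 and 0.00016). The size of the strain difference of *Slc25a39* thus depended on the probeset read, and its calls by the brightest probeset were lost without 7 of the 12 arrays in prepachytene cells (adjusted p up to 0.143) and without either B6 or the first PWD spermatid array in spermatids (up to 0.106).

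The 2 probesets of *Slc25a26*, the S-adenosylmethionine carrier, went opposite ways between pachytene cells and spermatids. The brighter, 1428929_s_at, was 9.9 and 9.7 in B6 against 9.3 and 9.7 in PWD pachytene cells and 7.8 and 7.6 against 7.4 and 7.4 in spermatids, a difference of -2.07 (limma adjusted p = 0.000141). The other, 1453886_a_at, was 8.1 and 7.9 against 6.8 and 6.9 in pachytene cells and 9.3 and 9.6 against 7.3 and 7.7 in spermatids, a difference of 1.06 (limma adjusted p = 0.00161). Both were higher in pachytene than in prepachytene cells, by 1.33 and 3.06, and the direction of the gene into spermatids is therefore not settled. For *Slc25a29*, 2 probesets were above background in PWD prepachytene cells alone. The one with the larger difference, 1438187_at, was 1.4 and 1.4 in B6 against 5.8 and 6.9 in PWD prepachytene cells and between 1.4 and 1.5 on the arrays of the other 4 groups, a strain difference of 4.89 (limma adjusted p = 2.1e-05), while the brightest probeset of the gene differed by 0.05. These probesets were singled out after their values were seen.

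**Figure D5:**
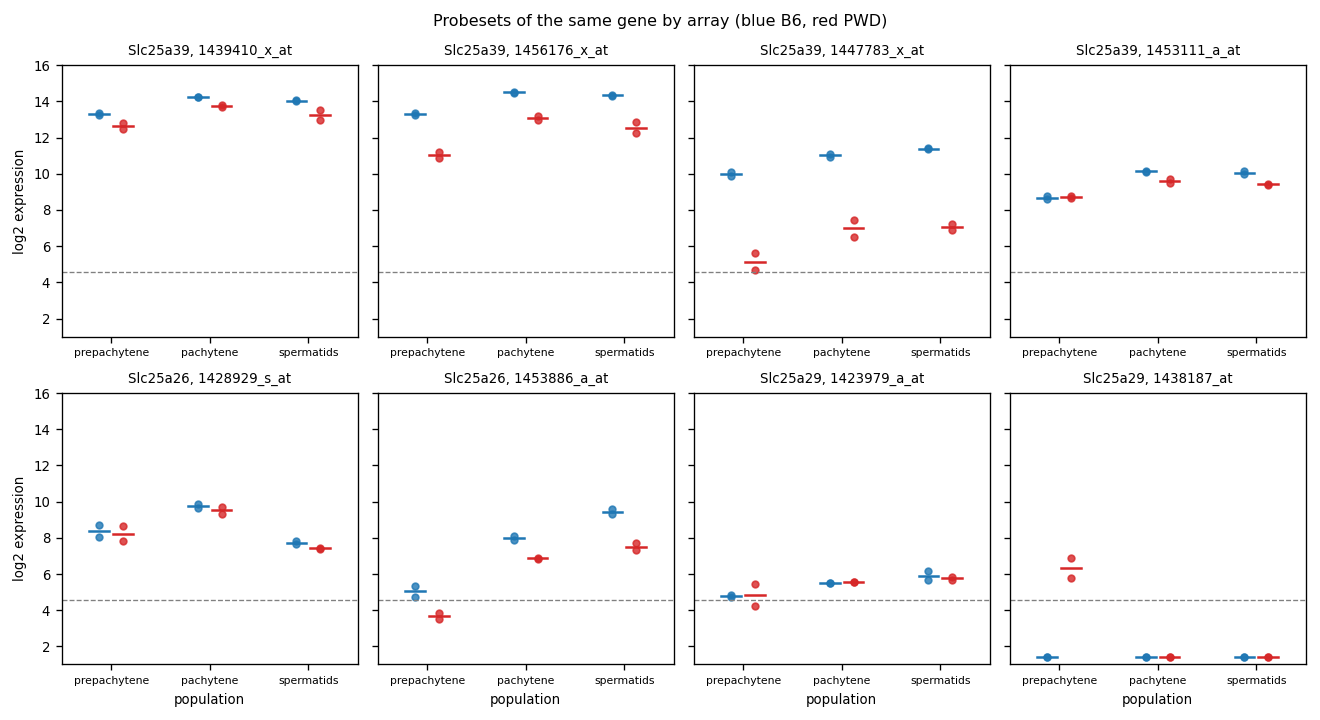
Log2 expression by population of 4 probesets of *Slc25a39*, 2 of *Slc25a26* and 2 of *Slc25a29*, with 1 point per array (blue, B6; red, PWD), bars at group means and a dashed line at the background level of 4.56. The PWD points of *Slc25a39* lie far below those of B6 for 1447783_x_at and close to them for 1453111_a_at, the 2 probesets of *Slc25a26* diverge in spermatids, and 1438187_at of *Slc25a29* is up in PWD prepachytene cells alone.

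Other genes of mitochondrial transport were read beside the family. Of 4 measured genes with the carrier fold outside the symbol rule (*Mtch1*, *Mtch2* and 2 uncoupling proteins), 0 passed between pachytene cells and spermatids. Of 15 genes of other mitochondrial membrane transport, 1 rose (*Mcu*, the pore of the calcium uniporter, by 4.41) and 4 fell (*Abcb8*, *Cpt2*, *Letm1* and *Mpc1*). Of 12 genes that import carriers into the inner membrane, 1 rose (*Tomm40*, the channel of the outer membrane, by 1.91) and 4 fell, *Timm22*, the insertase for carriers, by the most (-3.28). Over all genes, 18.2% were higher in spermatids and 23.8% lower. These lists had medians of 0.17, -0.01 and -0.30, against -0.03 for the carriers.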

How the data were processed

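Expression was measured on Affymetrix Mouse Genome arrays hybridised with cRNA from sorted cells. The authors deposited log2 values of standard probesets, GCRMA values per the submitters' processing notes, with no version in the sources used here; GCRMA corrects background by probe sequence and equalises quantiles over arrays, so that a population with different RNA content can shift many values. The study's methods name RMA for another array type. The labels give 15 to 40 ng of RNA per sample.

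From these values 64 control probesets were left out and 45037 tested with limma 3.58.1 in R 4.3.3 (6 group means, variance prior following the mean, Benjamini-Hochberg adjustment over all probesets, threshold 0.05), and summaries used pandas 2.3.3 and numpy 2.4.6 in Python 3.11.15, with plots from matplotlib 3.10.9. Each gene was read from its brightest probeset (highest mean of the 12 arrays), with names from the platform annotation updated through RefSeq. Named were the ADP/ATP carriers, the 10 highest and 10 lowest members between pachytene and prepachytene cells, the 8 highest and 8 lowest calls into spermatids, and every member called between strains. Members and lists were chosen with earlier results of these data known. Scripts were tested on simulated data. The number of arrays limits the precision. Same-numbered arrays of different groups deviated together at correlations of -0.25 to 0.083, so the numbers were not taken as pairs.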

Additional observations from a re-analysis of the deposited data

Results flagged for a closer look

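In 6 results the strains differed in the size of a change between populations by limma's test of that difference. Into pachytene cells these were *Slc25a51* (PWD change minus B6 change 1.82), *Slc25a31* (1.26), *Slc25a13* (0.41) and *Slc25a10* (-0.86). Into spermatids they were *Slc25a36* (1.48) and *Slc25a13* (-0.41). *Slc25a13* was below background on every array, at 2.4 and 2.2 in PWD pachytene cells and between 1.9 and 2.0 on the other 10 arrays. No group had enough arrays for a test of single outlying arrays.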

How the results depend on the processing

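The counts for spermatids against pachytene cells (12 members higher, 13 lower) stayed between 11 and 18 and between 11 and 14 over all alternatives, the 18 with centred arrays. Among the strain counts, fitting only the arrays compared gave 1 member higher in PWD prepachytene cells, 3 higher in PWD pachytene cells, 0 with a more negative change into pachytene cells, and 4 and 4 with a more positive and a more negative change into spermatids. Members lower in PWD prepachytene cells numbered 5 with quantile normalization repeated, 10 with centred arrays and 6 with the second-brightest probeset of each gene. Members lower in PWD pachytene cells numbered 2, 1 and 3 under these and 1 with only probesets above background tested, and centring left 3 higher. Members lower in PWD spermatids were 5 with centred arrays and 6 with only probesets above background. The counts of more negative changes into pachytene cells and into spermatids were 0 and 0 under both of the latter settings, and that of more positive changes into spermatids was 2 with the second-brightest probeset. With a limit of 2 on the log2 scale, 5 members were higher in pachytene cells. Directions turned with the second-brightest probeset for *Slc25a10* between strains in prepachytene cells (-0.037), *Slc25a24* (-0.086) and *Slc25a32* (0.10) in spermatids, *Slc25a36* (-0.30) and *Slc25a4* (0.76) in pachytene cells, and *Slc25a26* (1.06) and *Slc25a53* (-0.057) into spermatids. *Slc25a4* between strains in pachytene cells also turned from -0.01 to 0.072 with quantiles repeated, and ranged from -0.32 to 0.29 without 1 array (0.29 and 0.044 without B6 or PWD pachytene replicate 1), and *Slc25a13* into spermatids turned to 0.063 with centred arrays; the cause was not tested.

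Without 1 array, members higher in PWD numbered 3 to 8, 3 to 6 and 5 to 8 in prepachytene cells, pachytene cells and spermatids, and those lower 1 to 4, 0 to 1 and 1 to 3. Members with a more positive and a more negative change numbered 2 to 4 and 0 to 4 into pachytene cells and 1 to 1 and 1 to 3 into spermatids. For the populations, 11 to 13 members were higher and 13 to 14 lower in spermatids, and 9 to 10 were higher and 11 to 14 lower in pachytene cells. The labels share replicate numbers between groups. With the replicate number as a block, *Slc25a32* in spermatids (limma adjusted p = 0.0645) and *Slc25a36* in pachytene cells (0.0617) were no longer called between strains. A block within strain lost no call, and one with the numbers of PWD pachytene cells crossed, added after seeing the data because these correlated at -0.247 and -0.179 with the other PWD groups, lost *Slc25a36* as the more positive change into spermatids (0 members, 0.0558) and *Slc25a53* into spermatids (0.0644). The background level by the 90th percentile (4.07) also left 37 members above it. Values below background limit what can be read of 7 members in every group. Only 22 of the 44 members were above background in all 6 groups, so the floor also limits others in part of the groups.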
